A study of Mus musculus with 9 samples.

Results

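The clustered protocadherins are a family of cell-surface adhesion genes that lie in 3 neighbouring clusters on mouse chromosome 18. Members were taken as every gene whose GRCm38 symbol begins with Pcdha, Pcdhb or Pcdhg on that chromosome, which gave 58 of the 54532 gene IDs in the count tables. The Pcdha cluster has 14 members, the Pcdhb cluster 22 and the Pcdhg cluster 22. All are on the plus strand, and all lie on the same chromosome as Sting1, the gene that encodes the innate immune receptor STING.

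Polyadenylated RNA was sequenced from mouse striatum, the input nucleus of the basal ganglia. Mice lacking STING (STING KO), mice lacking the cytosolic DNA sensor cGAS (cGAS KO) and wild-type mice (WT) gave 3 libraries each, 9 in all. The knockouts were made with CRISPR-Cas9 on a C57BL/6J background, and the series' design text places the tissue after ischemic stroke in the knockouts. The edited exon, the age of the mice and the time after stroke are not stated in the sources used here. The labels also do not say whether the WT mice also had a stroke. If they did not, injury and genotype cannot be told apart in the comparisons with WT. The labels do not say whether the replicates are separate animals, so p-values measure only the spread between these libraries. In bulk tissue, fewer cells of a type and less RNA per cell cannot be told apart.

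Protocadherins bind copies of themselves on neighbouring cells, and the combination that a neuron displays helps its own branches recognise and avoid each other. In the Pcdha and Pcdhg clusters each variable exon has its own promoter and is spliced to constant exons shared by the whole cluster, whereas each Pcdhb gene is a single coding exon. Most variable exons, called alternate isoforms, are chosen at random by the single neuron through promoter methylation and looping by CTCF and cohesin, while the C-type isoforms at the ends of Pcdha and Pcdhg are used more widely.

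On GRCm38, the assembly that mm10 names, the Pcdha cluster spans chromosome 18 from 36930184 to 37187661, which is 1.19 to 1.45 Mb past the end of Sting1. The Pcdhb cluster spans 37264938 to 37524479, at 1.52 to 1.78 Mb, and the Pcdhg cluster 37661793 to 37841873, at 1.92 to 2.10 Mb. Sting1 itself (ENSMUSG00000024349) occupies 35733679 to 35740554. Coordinates are those of the GENCODE M21 annotation, in which Sting1 carries its older symbol Tmem173.

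How well single isoforms can be counted differs between the clusters. The constant exons belong to every Pcdha gene or every Pcdhg gene, so a base of those exons is shared by up to 14 annotated genes in Pcdha and up to 26 in Pcdhg. The median member has 2475 exonic bases that no other annotated gene shares in Pcdha, or 46.4% of its exons. In Pcdhg it has 2587 bases, or 54.7%, and in Pcdhb 3714 bases, or 100%. The variable exons also resemble each other. The median share of 50-base words in a member's unshared sequence that recur in another member was 10.3% in Pcdha, 3.33% in Pcdhb and 1.02% in Pcdhg. The highest shares were 25.3% for Pcdha7, 16.8% for Pcdhgb1 and 9.52% for Pcdhb11.

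Genes made up of shared bases alone had hardly any counts. Within the 3 loci, 8 genes have no unshared exonic base, and their counts ran from 0 to 5. The highest belongs to Pcdhga10, the only member among them, whose exons overlap an antisense transcript, Gm26672. Pcdha4, with 404 unshared bases, had 0 to 15 counts. The low values of these genes therefore say nothing about their transcription, and levels below are given per kilobase of unshared exon.

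Of the 58 members, 54 had enough counts to be tested, namely 12 in Pcdha, 21 in Pcdhb and 21 in Pcdhg. Those not tested were Pcdha4, Pcdhb1, Pcdhga10 and ENSMUSG00000102206, which is 1 of 2 gene IDs that carry the symbol Pcdha11. Pcdhb1, the gene of its cluster nearest to Sting1, had 2 to 6 counts in STING KO libraries, 6 to 8 in cGAS KO libraries and 0 to 4 in WT libraries. ENSMUSG00000102206 had 0 or 1 count in STING KO libraries, 0 to 2 in cGAS KO libraries and 0 to 5 in WT libraries. A count of 0 allows up to 3 counts, which is 0.135 to 0.226 normalized counts relative to library size (CPM) at these depths, for counting error only.

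Libraries held 14129021 to 21286775 counts over all genes. The members together took 9263 to 11998 of them, or 0.0537% to 0.0829% of a library. STING KO replicate 2, cGAS KO replicate 2 and WT replicate 3 stood apart, with 2280 to 4723 genes at 1 to 9 counts, against 7096 to 7927 in the other 6 libraries. They are named libraries of low complexity here, and values without them are given where they move a named difference. Sting1 transcript was at 2.18, 1.05 and 1.84 CPM in STING KO libraries, 2.67, 1.66 and 2.75 CPM in cGAS KO libraries and 4.06, 3.01 and 1.34 CPM in WT libraries. The groups overlapped, and the log2 fold change of STING KO over WT was -0.73 (SE 0.50, unadjusted p = 0.177, edgeR's quasi-likelihood test). STING KO and WT overlapped only through WT replicate 3, at 1.34 CPM. Outside the libraries of low complexity they stood apart, at 2.18 and 1.84 CPM in STING KO and 4.06 and 3.01 CPM in WT. Where the deletion lies is not given, so the transcript level is a weak check of the labels.

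All 9 markers of striatal projection neurons were detected. Their summed level was 6115 to 7024 CPM in STING KO libraries, 6186 to 7642 CPM in cGAS KO libraries and 3452 to 7532 CPM in WT libraries, with the lowest value in WT replicate 3. The 6 markers of cortical glutamatergic neurons summed to 246.6 to 635 CPM in STING KO libraries, 75.4 to 454 CPM in cGAS KO libraries and 68.1 to 1079 CPM in WT libraries, with the highest value in the same WT library. No listed marker of either kind was at 0 in all libraries. The part of these neighbouring cell types in the results was not tested.

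Most of the clustered protocadherin counts came from the Pcdhg cluster. Levels below are CPM per kilobase of unshared exon, which allows genes of different length to be compared, and are means over 9 libraries with the lowest and the highest library. The median member stood at 1.06 in Pcdha, 1.60 in Pcdhb and 6.17 in Pcdhg. Of the counts of all members, Pcdhg held 58.0% to 64.7%, Pcdhb 27.0% to 34.3% and Pcdha 7.23% to 13.1%. The Pcdhg share was 62.5%, 64.7% and 62.1% in STING KO libraries and 58.7%, 60.6% and 62.5% in cGAS KO libraries. In WT libraries it was 58.0%, 58.5% and 58.6%. All knockout libraries lay above all WT libraries in this share, for cGAS KO by a narrow gap. The Pcdhb and Pcdha shares of each knockout overlapped with WT. These shares were not tested. The order of the clusters was the same in every library.

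**Figure D1:**
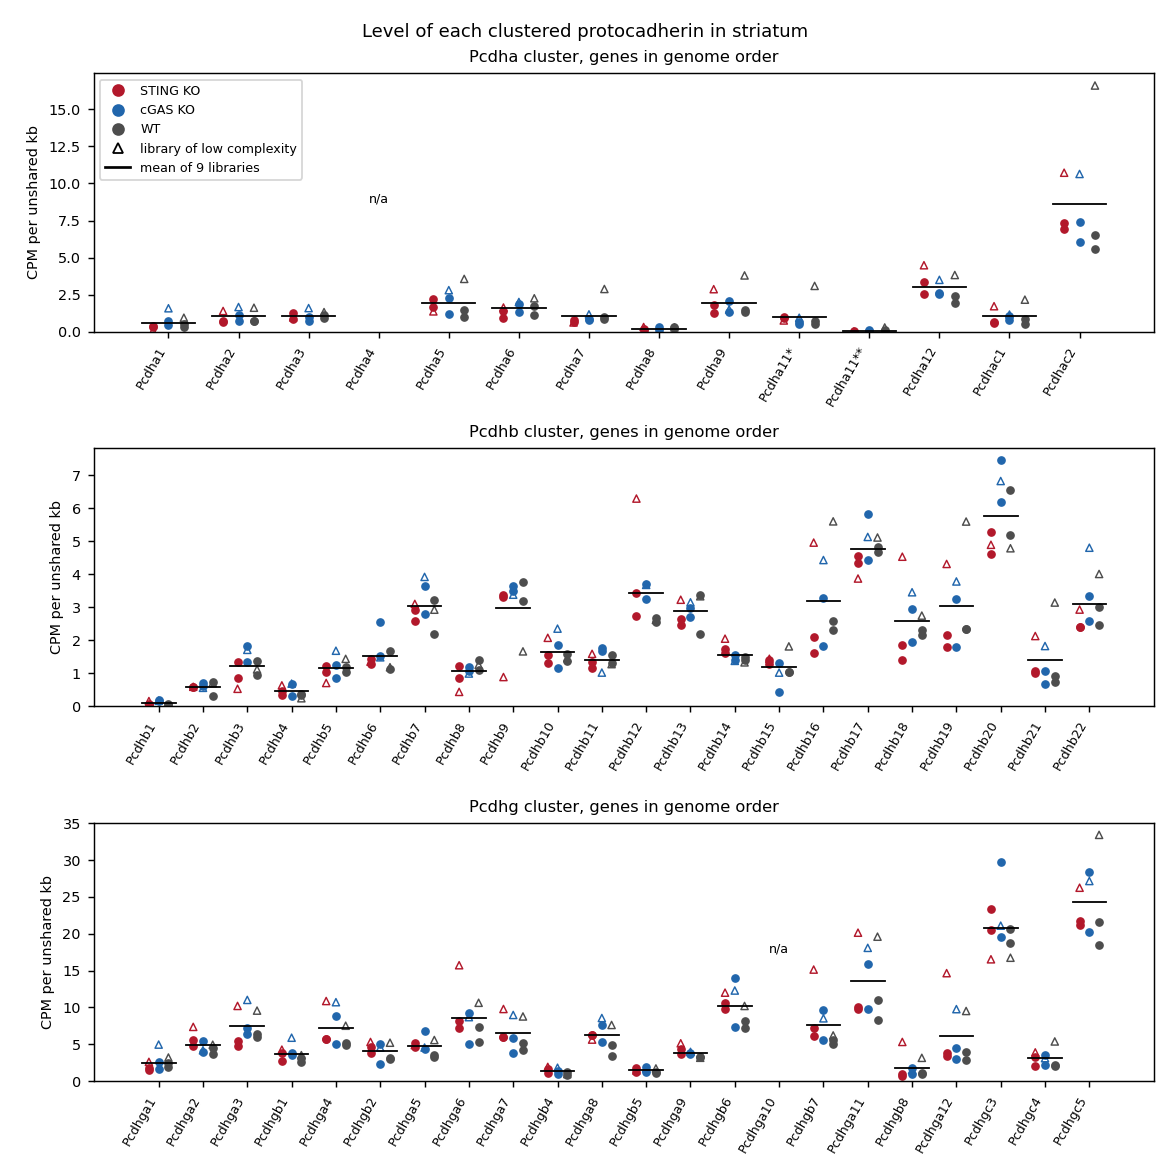
Level of each clustered protocadherin in CPM per kilobase of unshared exon (vertical axes, linear) with genes in genome order. Each point is 1 library, open triangles are the libraries of low complexity, and the black line is the mean of 9 libraries. Pcdha11 with 1 star is ENSMUSG00000007440 and with 2 stars ENSMUSG00000102206, and n/a marks Pcdha4 and Pcdhga10, which have under 500 unshared bases. Pcdhac2 stands above every other Pcdha member with a level, and Pcdhgc3 and Pcdhgc5 are the highest members of Pcdhg by their mean.

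Among the C-type isoforms were the highest members of Pcdhg and Pcdha, but others lay in the middle or lower part of their cluster. Pcdhgc5, an isoform that earlier work has placed at some inhibitory synapses, was the highest member at 24.3 (18.5 to 33.4) CPM per kilobase. Pcdhgc3, which in mouse cortical neurons promotes dendrite branching through Axin1, followed at 20.8 (16.5 to 29.7). Mouse choroid plexus also carries Pcdhgc3. Its 6 listed markers were all detected and summed to 60.1 to 499.9 CPM in STING KO libraries, 26.9 to 215 CPM in cGAS KO libraries and 33.7 to 2757 CPM in WT libraries, and their part in this level was not tested. The ranges of the Pcdhgc5 and Pcdhgc3 levels overlap, so their order per unshared kilobase is not settled by these libraries. Of the 5499 exonic bases of Pcdhgc3 1821 are unshared. Per kilobase of all exonic bases it stood at 6.88, below Pcdhgc5 at 14.7. Pcdhgc4, required in mouse for the survival of cortical interneurons, was lower at 3.09 (2.08 to 5.39) per unshared kilobase, which overlaps neither range.

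In the Pcdha cluster, Pcdhac2 led at 8.64 (5.55 to 16.6) CPM per kilobase. Its lowest library lay above the highest library of every other Pcdha member with a level, the next being Pcdha12 at 3.03 (1.93 to 4.48). Pcdhac2 is the isoform that serotonergic axons of the mouse depend on for even spacing. The serotonergic markers Tph2, Slc6a4 and Fev summed to 0.209 to 1.40 CPM in STING KO libraries, 1.06 to 1.24 CPM in cGAS KO libraries and 0.707 to 1.54 CPM in WT libraries. Only the sum of STING KO replicate 2, 0.209 CPM, was at the floor of 3 counts. These markers were thus detected at a low level. Which cells their transcripts came from was not tested. The other C-type isoform of the cluster, Pcdhac1, stood at 1.05 (0.512 to 2.16), close to the cluster's median.

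By counts, Pcdhac2 supplied 43.7% of the Pcdha cluster, between 41.3% and 47.1% in single libraries. Pcdhgc5 supplied 27.6% of the Pcdhg cluster, between 22.4% and 30.9%. The C-type members together made up 49.4 ± 3.73% of Pcdha counts in STING KO libraries, 47.1 ± 0.928% in cGAS KO libraries and 47.8 ± 2.26% in WT libraries (SD, n = 3 each). In Pcdhg they made up 37.4 ± 5.98%, 40.2 ± 4.10% and 42.1 ± 1.27% in STING KO, cGAS KO and WT libraries. The differences between group means were smaller than the larger SD in both clusters.

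**Figure D2:**
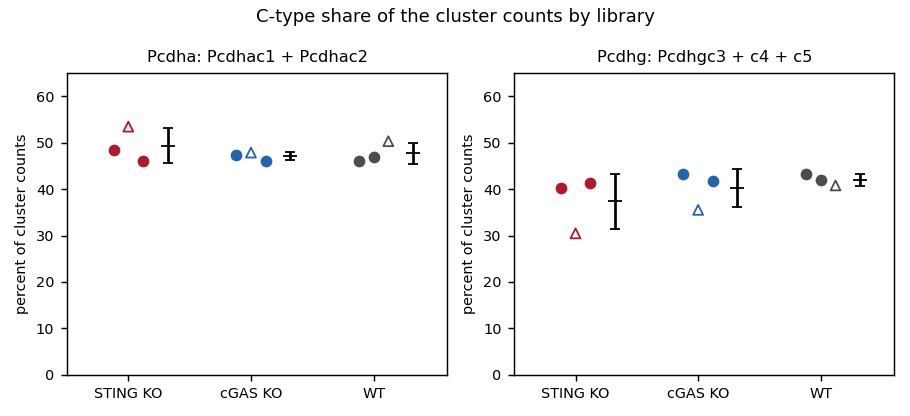
Share of the cluster's counts held by the C-type isoforms (vertical axes, percent), for Pcdha on the left and Pcdhg on the right, in STING KO, cGAS KO and WT libraries. Points are libraries, open triangles are those of low complexity, and the bar beside each group is the mean with its SD. The groups overlap, and the lowest Pcdhg share, 30.5%, is that of STING KO replicate 2.

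The alternate isoforms of Pcdhg split into the A and B subfamilies. The 12 Pcdhga members, with Pcdhga10 not measurable, held 42.5 ± 5.69% of the cluster's counts in STING KO libraries, 40.7 ± 4.09% in cGAS KO libraries and 40.5 ± 2.35% in WT libraries. The Pcdhgb members held 19.5%, 20.6% and 20.5% in STING KO libraries, 18.01%, 19.1% and 20.2% in cGAS KO libraries and 18.3%, 17.9% and 16.2% in WT libraries. All STING KO libraries lay above all WT libraries in this share, and cGAS KO libraries overlapped with both. The share is a score over members and was not tested. Per kilobase, Pcdhga11 was the highest alternate isoform at 13.6 (8.34 to 20.1), but its range overlaps that of Pcdhgb6, at 10.2 (7.25 to 14.0). Of its 4756 exonic bases 1256 are unshared, and per kilobase of all exonic bases it stood at 3.60, below Pcdhgb6 at 5.58 and Pcdhga6 at 4.76. The lowest were Pcdhgb4 at 1.34 (0.831 to 1.94) and Pcdhgb5 at 1.498 (1.13 to 1.87). Pcdhga1, the gene of the cluster nearest to Sting1, stood at 2.51 (1.51 to 4.97).

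The Pcdhb genes, which carry no constant exons, tended to be higher towards the Pcdhg end of their cluster. Pcdhb20 at 5.76 (4.61 to 7.45) and Pcdhb17 at 4.76 (3.87 to 5.82) CPM per kilobase led. Pcdhb12 followed at 3.44 (2.57 to 6.30), which rests on 1107 unshared bases of 3034, and with all exonic bases as length it ranked 15 of 22. Pcdhb1 at 0.110 (0 to 0.202) and Pcdhb4 at 0.457 (0.247 to 0.690), near the Pcdha end, were lowest, and Pcdhb22, the last gene, stood at 3.11 (2.41 to 4.81). Described over the 22 genes, Spearman's rho between gene order and level was 0.67. It was 0.24 over 13 Pcdha genes and 0.27 over 21 Pcdhg genes. These genes share libraries and are not independent.

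Among the alternate Pcdha isoforms, Pcdha12 was followed by Pcdha5 at 1.95 (0.962 to 3.56). Their ranges overlap, but Pcdha12 was the higher one within every library. Pcdha8 at 0.209 (0 to 0.325) and ENSMUSG00000102206 at 0.0612 (0 to 0.279) were the lowest. Pcdha1, the gene of all the clusters nearest to Sting1, stood at 0.589 (0.0560 to 1.58). The highest member was 141 times the lowest in Pcdha, 52.4 times in Pcdhb and 18.1 times in Pcdhg, and the first of these ratios rests on 0 to 5 counts in the lowest gene.

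Loss of STING or cGAS was not accompanied by a called change of any clustered protocadherin. The summed Pcdha level was 46.9, 68.9 and 51.3 CPM in STING KO libraries, 43.0, 73.4 and 54.4 CPM in cGAS KO libraries, and 39.3, 46.5 and 111 CPM in WT libraries. The WT group held both the lowest and the highest library, so the groups overlapped throughout. The Pcdhb cluster summed to 189 ± 31.4 CPM in STING KO libraries, 217 ± 34.5 CPM in cGAS KO libraries and 203 ± 33.0 CPM in WT libraries (SD, n = 3 each). The Pcdhg cluster summed to 422 ± 102 CPM, 426 ± 95.7 CPM and 378 ± 105 CPM in STING KO, cGAS KO and WT libraries. Group means differed by less than the SD within groups in each cluster.

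**Figure D3:**
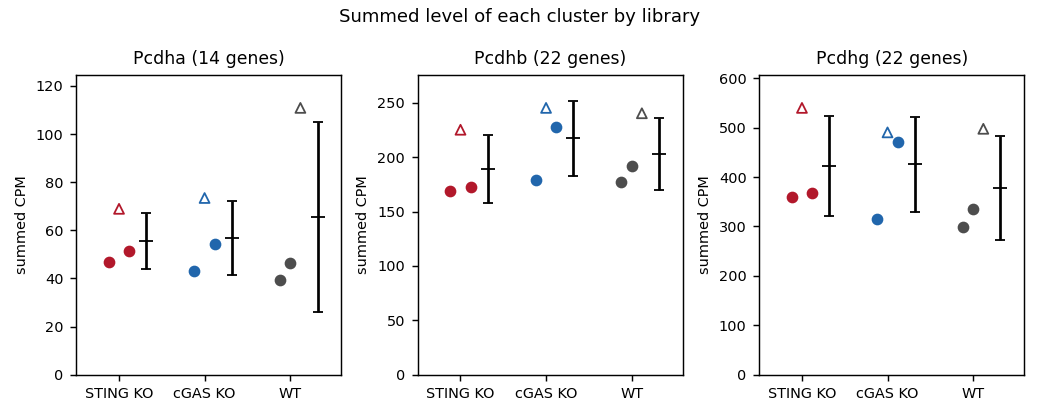
Summed CPM of the members of each cluster (vertical axes from 0) in STING KO, cGAS KO and WT libraries. Points are libraries, open triangles are those of low complexity, and the bar beside each group is the mean with its SD. The groups overlap in all 3 clusters, and the highest Pcdha sum, 111 CPM, is that of WT replicate 3.

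In STING KO against WT, 0 of the 54 members tested had an adjusted p under 0.05 in edgeR's quasi-likelihood test, higher or lower, where 0% of the 17821 genes tested were called. DESeq2 and limma-voom called 0 members as well. At an unadjusted p under 0.05, 0 members were higher, beside 0.898% of all genes, and 1 was lower, beside 0.735%. That member was Pcdha7, an alternate isoform whose unshared exon has the highest word sharing of all members. It was at 1.68, 1.32 and 1.34 CPM in STING KO libraries, 1.62, 2.49 and 1.77 CPM in cGAS KO libraries and 2.17, 1.77 and 6.16 CPM in WT libraries. All STING KO libraries lay below all WT libraries, and the WT mean was carried by replicate 3. Its log2 fold change was -1.20 (SE 0.53, unadjusted p = 0.0470, edgeR adjusted p = 0.9999), and without the libraries of low complexity -0.39 (SE 0.36, unadjusted p = 0.305).

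STING KO and WT libraries did not overlap for 5 members. The 3 that were higher in STING KO, beside 3.4% of all genes, were Pcdhb12, Pcdhb14 and Pcdhga9. The 2 that were lower, beside 3.67%, were Pcdha7 and Pcdhb17. Pcdhb14 was at 15.2, 17.8 and 14.1 CPM in STING KO libraries and 12.1, 13.0 and 11.6 CPM in WT libraries, a log2 fold change of 0.36 (SE 0.19, unadjusted p = 0.0907, edgeR). Pcdhga9 was at 15.0, 17.8 and 12.6 CPM in STING KO libraries and 11.3, 11.5 and 11.04 CPM in WT libraries, a log2 fold change of 0.42 (SE 0.20, unadjusted p = 0.0613, edgeR). Both were among the steadiest members across libraries, and the gaps between their groups were narrow. Pcdhgb7, at 17.3 ± 8.96 CPM in STING KO libraries and 10.2 ± 1.07 CPM in WT libraries (SD, n = 3 each), had the smallest p of the members with a positive difference (log2 fold change 0.76, SE 0.36, unadjusted p = 0.0607, edgeR), and its groups overlapped. Its highest STING KO library was that of low complexity, and without such libraries its log2 fold change was 0.34 (SE 0.27, unadjusted p = 0.247). Without them it was 0.22 for both Pcdhb14 (SE 0.18) and Pcdhb12 (SE 0.28), and 0.27 (SE 0.18) for Pcdhga9. Pcdhb17 was at 21.3, 18.1 and 20.3 CPM in STING KO libraries, against 22.4, 21.9 and 23.8 CPM in WT libraries. Its log2 fold change was -0.19 (SE 0.18, unadjusted p = 0.307, edgeR), and -0.09 (SE 0.18) without the libraries of low complexity.

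The clusters differed in the sign of their fold changes against WT. In STING KO, 1 of 12 Pcdha members, 9 of 21 Pcdhb members and 17 of 21 Pcdhg members had a positive log2 fold change. Their medians were -0.22, -0.09 and 0.25, beside 0.00 over all genes tested. The Pcdha sign rests on WT replicate 3: without that library the median was 0.41. Without the 3 libraries of low complexity it was -0.01, while the Pcdhg median was 0.29. Without STING KO replicate 2 alone the Pcdhg median was 0.07, and without WT replicate 3 alone 0.51. The median SE of a single member was 0.52 in Pcdha, 0.36 in Pcdhb and 0.35 in Pcdhg.

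In cGAS KO against WT, edgeR, DESeq2 and limma-voom called 0 of the 54 members, beside 0% of all genes in edgeR, and 0 members passed an unadjusted p of 0.05 in edgeR, beside 1.04% of all genes higher and 0.982% lower. Libraries did not overlap for 3 members that were higher in cGAS KO and for 0 that were lower, beside 4% of all genes in each direction. The 3 were Pcdhb12, Pcdhgb1 and Pcdhga9. Pcdhgb1 was at 9.28, 15.5 and 9.89 CPM in cGAS KO libraries and 6.95, 8.38 and 9.27 CPM in WT libraries (log2 fold change 0.49, SE 0.29, unadjusted p = 0.118, edgeR). The lowest cGAS KO library and the highest WT library were nearly equal, and this gene has the highest word sharing of its cluster. Pcdhb12 was at 3.79, 6.97 and 3.02 CPM in STING KO libraries, 4.12, 4.08 and 3.60 CPM in cGAS KO libraries and 2.98, 2.85 and 2.90 CPM in WT libraries. Both knockouts lay above WT, with log2 fold changes of 0.66 (SE 0.36, unadjusted p = 0.102, edgeR) for STING KO and 0.43 (SE 0.36, unadjusted p = 0.260, edgeR) for cGAS KO. The lowest STING KO value, 3.02 CPM, was nearly equal to the highest WT value, 2.98 CPM. The highest STING KO value was in its library of low complexity. Once such libraries were left out, the log2 fold changes of cGAS KO over WT were 0.41 (SE 0.28) for Pcdhb12 and 0.32 (SE 0.24) for Pcdhgb1.

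Pcdhb4 and the Pcdha11 gene ENSMUSG00000007440 gave the largest differences of their sign in cGAS KO. Pcdhb4 averaged 2.11 ± 0.775 CPM in cGAS KO libraries and 1.18 ± 0.244 CPM in WT libraries (log2 fold change 0.82, SE 0.48, unadjusted p = 0.119, edgeR). ENSMUSG00000007440 was at 1.62, 2.34 and 1.24 CPM in cGAS KO libraries and 1.85, 1.23 and 7.71 CPM in WT libraries (log2 fold change -1.04, SE 0.66, unadjusted p = 0.145, edgeR). WT replicate 3 held the high value, and without the libraries of low complexity the log2 fold changes were -0.11 (SE 0.38) for ENSMUSG00000007440 and 0.51 (SE 0.45) for Pcdhb4. In cGAS KO, 5 of 12 Pcdha, 15 of 21 Pcdhb and 18 of 21 Pcdhg members were positive, with medians of -0.14, 0.13 and 0.23, beside -0.01 over all genes. Both knockouts were set against the same WT libraries, so their shared signs are not independent. Without WT replicate 3 the Pcdha median in cGAS KO against WT was 0.34, and the Pcdhg median 0.45. Without WT replicate 2 the Pcdhg median was 0.09.

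The comparison of STING KO with cGAS KO uses no WT library. Here too edgeR, DESeq2 and limma-voom called 0 of the 54 members, beside 0% of all genes in edgeR. At an unadjusted p under 0.05 in edgeR 0 members were higher in STING KO, beside 0.825% of all genes, and 2 were lower, beside 0.623%. Pcdha1 was at 0.933, 0.139 and 0.839 CPM in STING KO libraries, 1.16, 3.92 and 1.83 CPM in cGAS KO libraries and 1.22, 0.805 and 2.33 CPM in WT libraries. STING KO lay below cGAS KO without overlap, but the lowest and the highest of these values were in libraries of low complexity, and the lowest was under the floor of 3 counts. The log2 fold change was -1.83 (SE 0.77, unadjusted p = 0.0399, edgeR adjusted p = 0.99999), and without the libraries of low complexity -0.75 (SE 0.46, unadjusted p = 0.142).

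Pcdhb20, the highest Pcdhb gene, was at 16.4, 17.4 and 18.8 CPM in STING KO libraries, 22.05, 24.3 and 26.5 CPM in cGAS KO libraries and 18.5, 23.4 and 17.1 CPM in WT libraries. The knockouts did not overlap, and WT libraries lay across both. Between the knockouts its log2 fold change was -0.47 (SE 0.19, unadjusted p = 0.0352, edgeR adjusted p = 0.99999), and without the libraries of low complexity -0.47 (SE 0.19, unadjusted p = 0.0390). Groups were also apart, lower in STING KO, for Pcdhb6 and Pcdhb9, which makes 4 members beside 3.72% of all genes. Pcdhb14 was the 1 member higher in STING KO without overlap, beside 3.63% of all genes. It averaged 15.7 ± 1.91 CPM in STING KO libraries and 12.6 ± 0.765 CPM in cGAS KO libraries (log2 fold change 0.32, SE 0.19, unadjusted p = 0.123, edgeR). Pcdhga2 followed at 15.2 ± 3.43 CPM in STING KO libraries and 11.6 ± 1.96 CPM in cGAS KO libraries (SD, n = 3 each), and its groups overlapped (log2 fold change 0.38, SE 0.24, unadjusted p = 0.150, edgeR). Without the libraries of low complexity the log2 fold changes were 0.19 (SE 0.18) for Pcdhb14 and 0.14 (SE 0.22) for Pcdhga2. Over the clusters, 5 of 12 Pcdha, 4 of 21 Pcdhb and 10 of 21 Pcdhg members were positive, with medians of -0.05, -0.14 and -0.06, beside 0.01 over all genes.

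**Figure D4:**
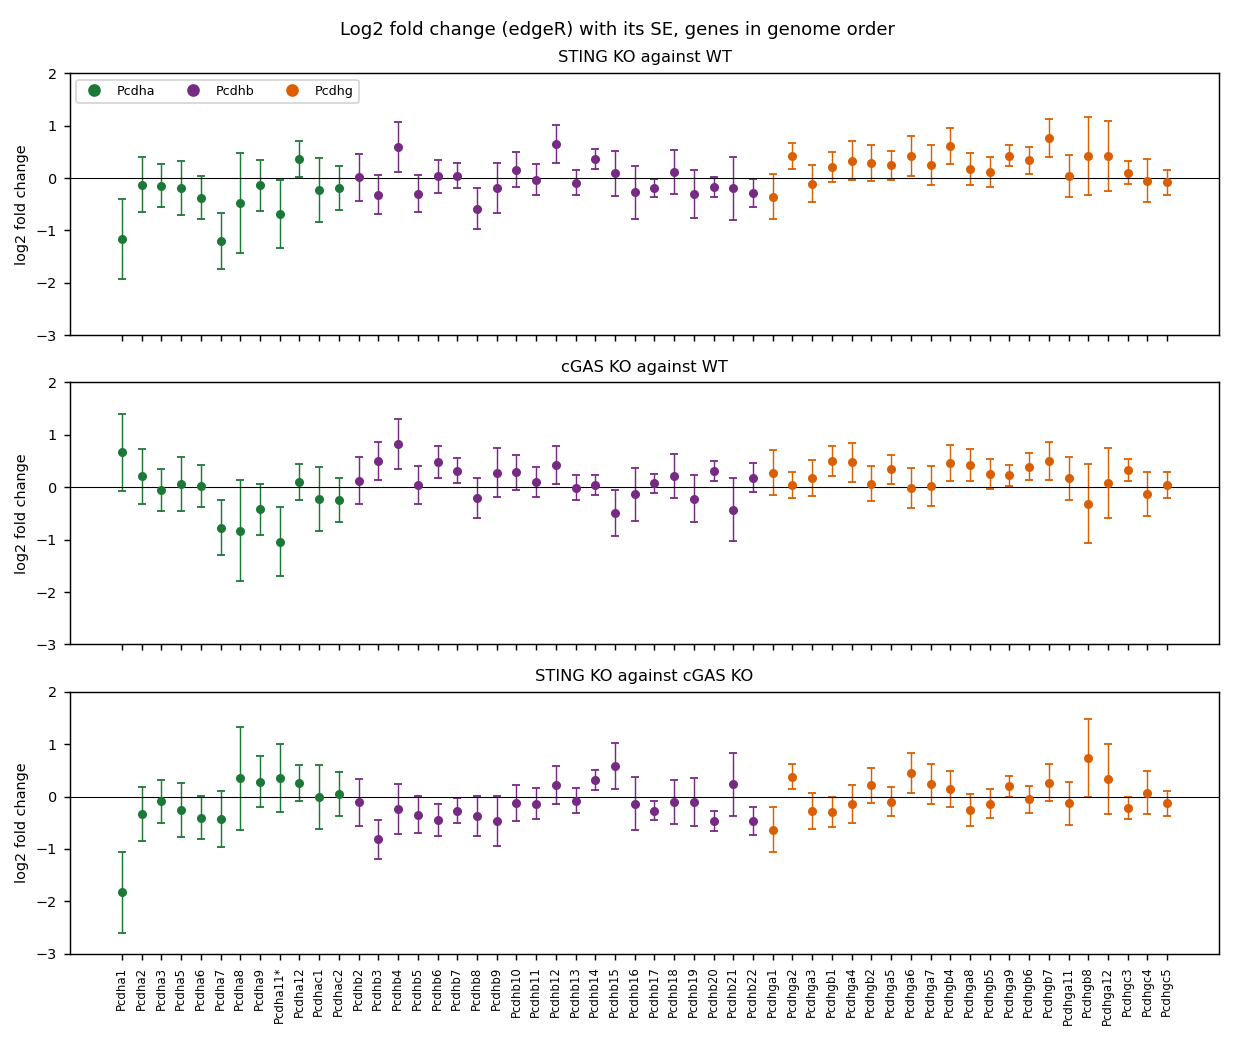
Log2 fold change of each of the 54 tested members with its SE (vertical axes) in genome order, for STING KO against WT, cGAS KO against WT and STING KO against cGAS KO from top to bottom. Colours mark the clusters, and Pcdha11 with 1 star is ENSMUSG00000007440. All values lie between -1.83 and 0.82, and 0 members passed the adjusted threshold.

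Of the 5 C-type isoforms, 0 were called in any comparison by edgeR, DESeq2 or limma-voom, where edgeR called 0% of all genes. At an unadjusted p under 0.05 in edgeR 0 of them passed, beside 0.623% to 1.04% of all genes in each direction. Their groups overlapped. Pcdhgc5 was at 100.3, 121 and 97.9 CPM in STING KO libraries, 93.3, 125 and 131 CPM in cGAS KO libraries and 85.0, 99.6 and 154 CPM in WT libraries. Its log2 fold change against WT was -0.09 (SE 0.24) for STING KO and 0.04 (SE 0.24) for cGAS KO. Pcdhgc3 averaged 36.7 ± 6.24 CPM in STING KO libraries, 42.8 ± 9.92 CPM in cGAS KO libraries and 34.1 ± 3.56 CPM in WT libraries (SD, n = 3 each). Its log2 fold change against WT was 0.11 (SE 0.21) for STING KO and 0.33 (SE 0.21, unadjusted p = 0.159, edgeR) for cGAS KO. Pcdhac2 was at 21.02, 32.5 and 22.2 CPM in STING KO libraries, 18.3, 32.2 and 22.5 CPM in cGAS KO libraries and 16.8, 19.7 and 50.3 CPM in WT libraries. The highest Pcdhac2 value of each group was in its library of low complexity. Pcdhac1 and Pcdhgc4 had log2 fold changes against WT of -0.24 (SE 0.61) and -0.05 (SE 0.41) for STING KO.

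Many members were higher in the libraries of low complexity than in the others. Of the 54 tested members, 45 had a higher mean in the 3 libraries of low complexity than in the other 6, or 83.3%, beside 48.8% of all genes tested. For 12 members those 3 libraries lay above all the others, 22.2% of the members beside 14.3% of all genes, and for 0 members below, beside 16.5%. The median log2 ratio was 0.72 in Pcdha, 0.19 in Pcdhb and 0.46 in Pcdhg, beside -0.02 over all genes. These libraries were singled out by a count over all genes and come from all 3 groups, 1 from each. In them the striatal projection markers summed to 3452 to 6186 CPM, below the 6602 to 7642 CPM of the others, and transcripts of 80 ribosomal protein genes took 0.244% to 0.630% of counts, against 0.737% to 0.968%. The part of library quality and of tissue composition in this pattern was not tested.

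Single isoforms differed widely in this respect. Pcdhga12, the last alternate isoform of its cluster, was at 39.3 to 60.4 CPM in the libraries of low complexity and at 11.7 to 18.5 CPM in the others, a ratio of 3.14. The ratio was 3.03 for Pcdhgb8, which had 3.77 to 13.3 CPM against 1.87 to 4.32 CPM, and 2.59 for Pcdhb21, with 7.77 to 13.4 CPM against 2.90 to 4.53 CPM. At the other end it was 0.571 for Pcdhb9 and 0.820 for Pcdhgc3. The summed Pcdha level did not overlap, at 68.9 to 111 CPM against 39.3 to 54.4 CPM, and neither did Pcdhg, at 490.4 to 539.9 CPM against 299.5 to 470.7 CPM. Pcdhb overlapped, at 225 to 245 CPM against 169 to 228 CPM. These members were chosen after their values were seen.

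**Figure D5:**
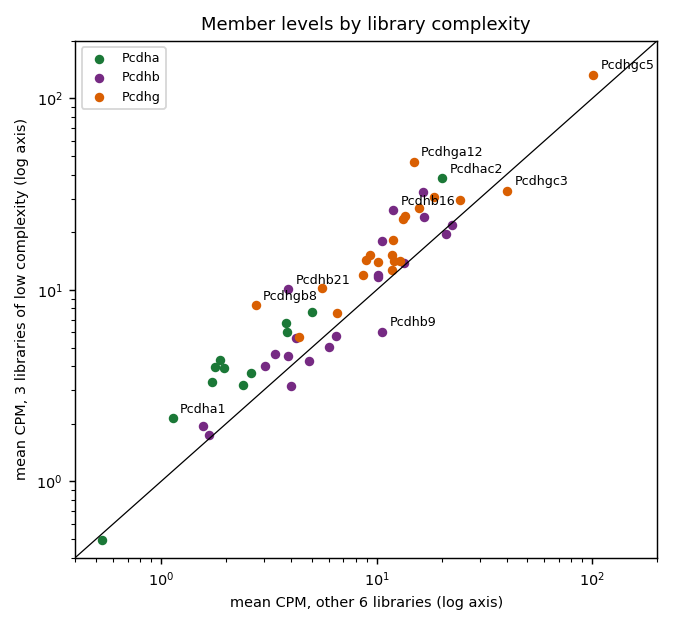
Mean CPM of each tested member in the 3 libraries of low complexity (vertical log axis) against the mean in the other 6 libraries (horizontal log axis), with the line of equality. Most members lie above the line, 45 of 54, and Pcdhga12 and Pcdhgb8 lie farthest above it. The labelled members were chosen after their values were seen.

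Within groups, the median coefficient of variation over libraries was 43.5% in Pcdha, 22.5% in Pcdhb and 28.2% in Pcdhg, beside 27.5% over all genes tested. Without the libraries of low complexity it was 21.7%, 16.3% and 17.9%, beside 13.0%. With those 6 libraries edgeR still called 0 members in each comparison. Of all genes it called 0.017% higher and 0.00566% lower in STING KO against WT, 0% in cGAS KO against WT, and 0.0113% higher and 0.00566% lower in STING KO against cGAS KO. At an unadjusted p under 0.05, 0 members passed in STING KO against WT, beside 4.02% of all genes higher and 2.89% lower in that fit. In cGAS KO against WT 2 of 54 passed, beside 2.44% of all genes higher and 1.77% lower, with log2 fold changes of 0.70 (SE 0.24) for Pcdhga5 and 0.63 (SE 0.25) for Pcdhga8. In STING KO against cGAS KO 3 of 54 passed, beside 1.99% higher and 1.7% lower, and these were Pcdhb18 (-0.59, SE 0.26), Pcdhb20 and Pcdhga3 (-0.43, SE 0.17).

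Genes that act with the clustered protocadherins showed no called change either, where edgeR called 0% of all genes tested over the 9 libraries. The list for promoter choice and chromatin holds 24 genes, such as Ctcf, the cohesin subunits and Smchd1, which represses the clusters. Over all 9 libraries 0 of them were called and 0 passed an unadjusted p of 0.05 in any of the 3 comparisons with edgeR. Of all genes 0.623% to 1.04% passed that p in each direction. Ctcf was at 70.4, 74.5 and 75.7 CPM in STING KO libraries, 72.9, 88.2 and 72.6 CPM in cGAS KO libraries and 79.9, 78.3 and 59.9 CPM in WT libraries. The groups overlapped. Among 21 partners and effectors, including the focal adhesion kinases Ptk2 and Ptk2b and the WAVE complex that the cytoplasmic tails bind, counts were also 0 and 0. Median log2 fold changes of these lists against WT were -0.08 and -0.13 for STING KO, and 0.03 and 0.04 for cGAS KO.

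Of the 12 nonclustered protocadherins, which lie outside these clusters, 11 were tested and 0 were called in edgeR, beside 0% of all genes. Pcdh20 was at 9.14, 5.65 and 9.28 CPM in STING KO libraries, 12.1, 10.04 and 11.8 CPM in cGAS KO libraries and 14.0, 13.0 and 22.3 CPM in WT libraries. STING KO libraries lay below both other groups (log2 fold change against WT -1.03, SE 0.29, unadjusted p = 0.00556, edgeR adjusted p = 0.9999). Without the libraries of low complexity it was -0.56 (SE 0.18, unadjusted p = 0.0141, edgeR). Over all 9 libraries Pcdh20 was the only list member with an unadjusted p under 0.05 in the 3 comparisons. Without those of low complexity Pcdh1 also passed, higher than in WT in both knockouts. Its log2 fold change was 0.60 (SE 0.15, unadjusted p = 0.00329, edgeR adjusted p = 0.558) for STING KO and 0.50 (SE 0.15, unadjusted p = 0.00887, edgeR adjusted p = 0.971) for cGAS KO. Per kilobase of unshared exon, Pcdh1 (21.5), Pcdh10 (17.8), Pcdh17 (16.2), Pcdh9 (15.7) and Pcdh7 (12.9) stood in the range of the highest Pcdhg isoforms.

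The region on both sides of Sting1 was examined because the members lie on the chromosome that carries the STING knockout allele. Of 142 other annotated genes starting within 3 Mb of Sting1, 78 were tested. EdgeR called 0 of these in any comparison, beside 0% of all genes. In STING KO against WT 4 of them had an unadjusted p under 0.05, all higher, namely Egr1, Hbegf, Dnd1 and Fchsd1, beside 0.898% of all genes higher and 0.735% lower. In cGAS KO against WT 0 did, beside 1.04% higher and 0.982% lower. Between the knockouts 1 had a positive and 1 a negative difference in STING KO, beside 0.825% and 0.623%. Dnd1, which lies between Sting1 and the Pcdha cluster, was at 3.54, 3.07 and 3.69 CPM in STING KO libraries, 1.57, 1.28 and 1.31 CPM in cGAS KO libraries and 1.72, 1.07 and 0.637 CPM in WT libraries. STING KO libraries lay above all others (log2 fold change against WT 1.57, SE 0.45, unadjusted p = 0.00592, edgeR adjusted p = 0.9999). Fchsd1, past the Pcdhg cluster, was at 6.84, 5.16 and 5.87 CPM in STING KO libraries, 4.12, 3.32 and 3.47 CPM in cGAS KO libraries and 3.16, 3.49 and 1.98 CPM in WT libraries. For STING KO the median log2 fold change against WT was 0.02 over the 60 tested genes that start before the clusters, on either side of Sting1. It was 0.05 over the 18 within or past the clusters, with 31 and 11 of these genes positive.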

How the data were processed

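Per the labels' protocols, RNA was extracted with Trizol from striatum and polyadenylated RNA was sequenced in pairs on an Illumina HiSeq. HISAT2, featureCounts and mm10 stand in the submitters' processing notes without versions. The sources used here state neither the annotation nor the strand setting nor how reads with multiple matches were handled, so isoforms, near-identical members and genes with antisense partners are uncertain. The authors deposited whole-number counts per gene, not normalized, in 1 file per library.

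Groups and replicate numbers come from the labels. Gene IDs were matched to GENCODE M21 (54495 of 54532), which gave symbols, coordinates and exonic bases that no other gene shares on either strand. Counts were scaled by TMM and fitted over all 9 libraries with edgeR 4.0.16 (R 4.3.3; filterByExpr, quasi-likelihood test, Benjamini-Hochberg over 17821 genes, threshold 0.05). CPM uses the effective library sizes of that fit. A level per kilobase needed 500 unshared bases. Sums, shares and medians over members have no test. Libraries of a group differed by more than sampling noise in every pair (chi-square per degree of freedom at least 8.67). The fits were tested on simulated data.

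Members, gene lists, tests and the libraries of low complexity were chosen with earlier results of these data known. Named members were the C-type isoforms, the 3 highest and 2 lowest per cluster, each cluster's ends and, per comparison, the 2 smallest p in each direction; others are named where a count of 5 or fewer includes them or as stated. Alternatives were DESeq2 1.42.0 (no count filter), limma-voom (limma 3.58.1), RLE factors, no filter, a fit on only the groups compared, a block for the replicate number, leave-one-out fits, and leaving out the 3 libraries of low complexity.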

Additional observations from a re-analysis of the deposited data

How the results depend on the processing

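The count of members called was 0 in all 3 comparisons under each of the 16 alternatives run, 48 fits in all. Of all genes tested, 17039 to 31936 by fit, these fits called only 0 to 10, so 0 members called is not particular to the members. The smallest adjusted p of a member was 0.721. At an unadjusted p under 0.05 the fits gave 0 to 4 members. The share of all genes at that p was 0.623% to 1.04% in each direction in the main fit. Without the 3 libraries of low complexity it was 1.7% to 4.02%. The median over all genes shifted by at most 0.04 on the log2 scale. Leaving out single libraries moved cluster medians of the log2 fold change. In Pcdha they ran from -0.55 to 0.41 in STING KO against WT and from -0.38 to 0.34 in cGAS KO against WT, with both upper values reached without WT replicate 3. In Pcdhb they ran from -0.19 to 0.077 in STING KO against WT, the upper value again without WT replicate 3, and from -0.36 without cGAS KO replicate 1 to -0.083 in STING KO against cGAS KO. In Pcdhg they ran from 0.07 to 0.51 in STING KO against WT, from 0.09 to 0.45 in cGAS KO against WT and from -0.21 to 0.13 in STING KO against cGAS KO. With all exonic bases as length, the median level was 0.490 CPM per kilobase in Pcdha and 2.66 in Pcdhg, since the same counts are divided by a longer length. Of 1199 values of named members, 1159 moved by less than the SD between replicates and 40 by more. The replicate numbers gave no consistent pairing, as same-numbered libraries correlated between -0.447 and 0.502. This cannot exclude a pairing, because the library of low complexity is replicate 2 in both knockouts and replicate 3 in WT. With the replicate block the Pcdha median in STING KO against WT was -0.16, and 0 members were called. Genes of 1 to 3 CPM, such as several alternate Pcdha isoforms, have too few counts to show small differences.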
